A study of Homo sapiens with 10 samples.

Results

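Recurring regions are stretches of the genome where peaks of the histone mark H4R3me2s, called separately in each library, fell on the same place in at least 2 of 9 libraries of SH-SY5Y cells, a human neuroblastoma line. Chromatin immunoprecipitation with sequencing (ChIP-seq) was run on 3 BDNF+Dox, 3 BDNF and 3 Naive libraries, and each was compared with the same Input library, which was made without antibody. BDNF+Dox and BDNF cells had been differentiated for 6 days in 10 µM retinoic acid with serum, followed by 4 days in the neurotrophin BDNF at 50 ng/ml without serum. BDNF+Dox cells had in addition been given doxycycline at 1 µg/ml for 3 days so that a Tet-on construct expressed α-synuclein, and Naive cells had neither differentiation nor doxycycline. All groups are labelled as the same line under zeocin selection, and the labels do not say whether it is 1 clone. Groups without the construct but with doxycycline were not analysed here, so the drug and the protein cannot be told apart. Peaks on chromosomes 1 to 22 and X that overlapped by 1 bp or more were merged, which gave 65632 regions, and 1558 of them (2.37%) were selected on the peak calls themselves, as those with a peak in 2 or more libraries. The other 64074 regions (97.6%) had a peak in 1 library and are called single-library regions.

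H4R3me2s is the symmetric dimethylation of arginine 3 on the tail of histone H4. It is written mainly by the methyltransferase PRMT5, and the mark is best known from repressed genes, although it has been found in other settings as well. α-Synuclein is a presynaptic protein that also enters the nucleus and is the main component of Lewy bodies in Parkinson disease.

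No region had a peak in all 9 libraries or in 8 of them. Of the 1558 recurring regions, 1468 (94.2%) had a peak in exactly 2 libraries, 76 in 3, 11 in 4, 2 in 6 and 1 in 7. A peak of every group was present in 30 recurring regions, and peaks of only 1 group in 355, of which 122 were of BDNF+Dox, 72 of BDNF and 161 of Naive. All 3 libraries of their group had a peak in 3 regions for BDNF+Dox, in 0 for BDNF and in 4 for Naive. The name therefore covers mostly places that met the rule at its lowest step. The lists give no value where no peak was called, so a library without a peak may still hold fragments there.

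Recurring regions met few promoters, as single-library regions did. Of 34961 RefSeq promoters with 250 bases upstream of the transcription start, recurring regions overlapped 2, and single-library regions overlapped 86. Recurring regions thus met 2.27% of the overlapped promoters, close to their 2.37% share of all merged regions. Both promoter sequences are shown because they are the whole promoter overlap of the recurring set; they were chosen after that overlap was seen. The sequences are from RefSeq (GRCh38.p14), 5′ to 3′ on the minus strand up to the base before the start site, and capitals mark the bases that lie in the recurring region. The first, chr14:20587726-20587975, belongs to RNASE11, a protein-coding gene of the ribonuclease A family, and the other, chr15:91804017-91804266, to the lncRNA gene LOC105370974.
RNASE11: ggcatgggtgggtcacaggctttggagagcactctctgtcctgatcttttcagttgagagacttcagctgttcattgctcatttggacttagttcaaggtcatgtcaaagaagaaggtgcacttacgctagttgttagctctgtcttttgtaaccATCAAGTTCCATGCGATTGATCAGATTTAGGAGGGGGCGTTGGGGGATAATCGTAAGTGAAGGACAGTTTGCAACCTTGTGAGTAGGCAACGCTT
LOC105370974: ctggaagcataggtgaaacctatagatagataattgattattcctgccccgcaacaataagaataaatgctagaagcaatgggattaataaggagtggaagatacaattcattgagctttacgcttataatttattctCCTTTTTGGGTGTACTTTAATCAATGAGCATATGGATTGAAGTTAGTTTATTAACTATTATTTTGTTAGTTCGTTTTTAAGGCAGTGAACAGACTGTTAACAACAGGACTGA
At RNASE11 95 of these bases lay in the region, and only the BDNF+Dox replicate 2 peak (10 fragments at its summit) reached them. The Naive replicate 2 peak of the same region (6 fragments) ended before the promoter, so the promoter itself had a peak in 1 library. At LOC105370974 112 bases lay in the region, and the peaks of BDNF+Dox replicate 2 (5 fragments) and Naive replicate 2 (7 fragments) both covered part of them. G and C made up 46.4% of the RNASE11 sequence and 33.2% of the LOC105370974 sequence, with 5 and 3 CpG sites. The median over all promoters was 58.4% with 11 CpG sites, and that over promoters in single-library regions was 40.2% with 2, so both lay below the median promoter in GC and CpG content, as did the typical promoter met by a single-library region.

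Each library was sequenced to a like depth, with 17164402 to 18928589 reads kept in the 9 ChIP libraries and 17074000 in the Input. Lists were less alike, with 4536 to 12207 peaks per library. The pileup heights came out as whole fragments in 100% of 67753 peaks (within 0.02 of a fragment), so peak heights are given below as numbers of ChIP fragments at the summit. Nothing in the labels ties the replicates to separate cultures, so the p-values below cover the spread among these samples alone, and that spread may be technical.

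The design asks whether the groups differ in how much of their signal falls in places seen more than 1 time. Peaks of BDNF+Dox replicates 1, 2 and 3 lay in 472, 318 and 298 recurring regions, those of BDNF replicates 1, 2 and 3 in 323, 258 and 318, and those of Naive replicates 1, 2 and 3 in 527, 307 and 406. The groups overlapped, and the numbers followed the length of the lists: Naive replicate 1, with 12135 peaks on these chromosomes, had the most and BDNF replicate 2, with 4505, the fewest. BDNF+Dox libraries averaged 363 ± 95.2 regions, BDNF libraries 300 ± 36.2 and Naive libraries 413 ± 110 (SD, n = 3 each). The difference between the 3 groups was within the spread of their libraries (p = 0.375, exact permutation of libraries among groups, on the F ratio). Pairwise, ratios were taken between geometric means, as the test used log10 numbers, and later ratios of regions held are of the same kind. The ratio was 1.19 for BDNF+Dox over BDNF (exact two-sided permutation p = 0.6) and 0.880 for BDNF+Dox over Naive (p = 0.6, same exact test). For BDNF over Naive it was 0.739 (p = 0.3, same exact test), where 0.1 is the smallest p that 3 libraries against 3 allow.

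As a share of each list, peaks in recurring regions made up 4.37%, 4.60% and 4.73% in BDNF+Dox replicates 1, 2 and 3, against 5.29%, 5.73% and 4.64% in BDNF and 4.34%, 5.26% and 5.17% in Naive. The longest lists, BDNF+Dox replicate 1 and Naive replicate 1, had the lowest shares of their groups, and the groups again overlapped. BDNF+Dox libraries averaged 4.57 ± 0.183%, BDNF libraries 5.22 ± 0.546% and Naive libraries 4.92 ± 0.506% (SD, n = 3 each; exact permutation p = 0.232 over the 3 groups). Adjusted by Benjamini-Hochberg over these 2 measures, both exact permutation tests gave p = 0.375. The difference was −0.654 percentage points for BDNF+Dox minus BDNF (exact two-sided permutation p = 0.2), −0.359 for BDNF+Dox minus Naive (p = 0.4, same exact test) and 0.295 for BDNF minus Naive (p = 0.5, same exact test). Among peaks with a −log10 p of 5 or more, 40 regions recurred, and BDNF+Dox libraries had a peak in 14, 14 and 12 of them, BDNF libraries in 9, 6 and 6 and Naive libraries in 14, 9 and 11 (exact permutation p = 0.0286 over the 3 groups, 0.1 for BDNF+Dox against BDNF). BDNF+Dox and BDNF did not overlap in that number, whereas the share of each list in the same regions did not differ beyond the spread (0.590 percentage points for BDNF+Dox minus BDNF, exact permutation p = 0.421 over the 3 groups). Lists at this cut held 926, 590 and 797 peaks in BDNF+Dox, 541, 504 and 782 in BDNF and 1766, 468 and 692 in Naive. Of 17 alternative settings for the number of regions held, this was the only setting with an exact permutation p under 0.05, unadjusted. At an equal number of 4505 peaks per library the ratio of BDNF+Dox over BDNF was 0.965 (exact permutation p = 0.711 over the 3 groups).

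**Figure D1:**
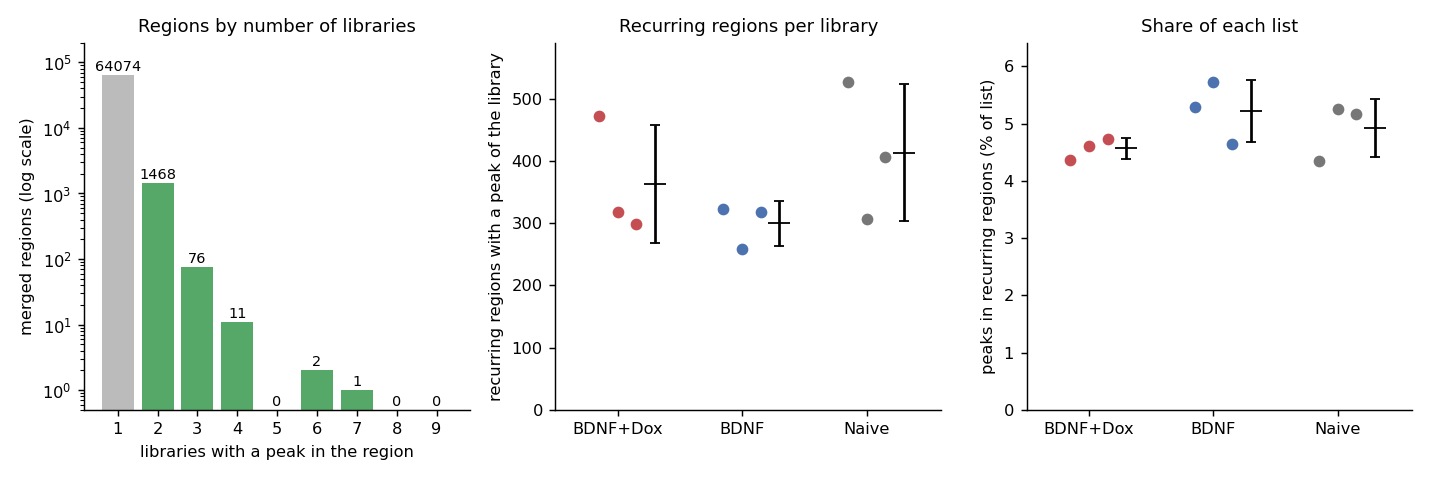
Merged regions by the number of libraries with a peak (left, log scale), and for each library the number of recurring regions with its peak (centre) and the percentage of its peaks that lie in them (right); points are libraries, and bars show the mean ± SD of 3. Most recurring regions (1468) had a peak in exactly 2 libraries, and the points of BDNF+Dox, BDNF and Naive overlap in both measures.

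The question of whether recurrence followed the labelled groups was put to the 1468 regions with exactly 2 libraries, since the rule used no group. Both libraries were of the same group in 351 of them (23.9%). Of the 36 possible pairs of libraries, 9 (25%) are within a group. The share within groups was not higher than under other partitions of the libraries (exact permutation test over 280 partitions, one-sided, p = 0.796). By composition, 444 regions joined BDNF+Dox and Naive (49.3 per pair of libraries), 302 joined BDNF+Dox and BDNF (33.6) and 371 joined BDNF and Naive (41.2). Pairs within BDNF+Dox had 40 each on average, pairs within BDNF 24 and pairs within Naive 53. Single pairs ran from 13, for BDNF replicates 1 and 2, to 79, for BDNF+Dox replicate 1 and Naive replicate 1, and the last of these pairs has the longest lists. Counting all shared regions, pairs within a group shared 49.2 regions on average (21 to 90, 9 pairs) and pairs between groups 50.7 (25 to 91, 27 pairs).

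**Figure D2:**
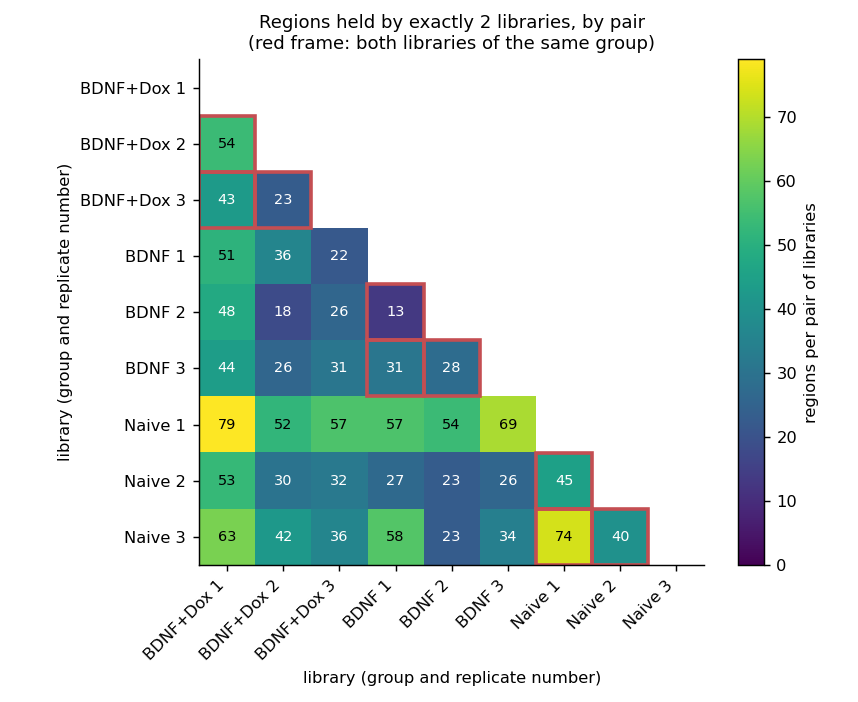
Number of regions held by exactly 2 libraries for each of the 36 pairs of libraries, with both axes listing the 9 libraries by group and replicate and colour giving the number of regions; red frames mark pairs of the same group. Framed pairs run from 13 to 74 regions and the other pairs from 18 to 79, and the 4 highest values all involve BDNF+Dox replicate 1 or Naive replicate 1.

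Within the recurring regions the peaks met loosely. In the 1468 regions of 2 peaks the summits were a median of 89 bp apart, and 451 (30.7%) had summits within 50 bp of each other. The peaks shared a median of 122 bp, and in 67.3% of these regions they shared at least 50% of the shorter peak. At the edge of the rule, 50 regions rested on an overlap of 1 to 10 bp, with a median −log10 p of 3.54 and a median fold of 3.43 over their 100 peaks; folds and p-values of peaks are the authors' own, each from its own list. Just outside the rule, 40 pairs of neighbouring peaks of different libraries were less than 10 bp apart, and their 80 peaks had a median −log10 p of 3.48 and a median fold of 3.37. Merged recurring regions had a median length of 290 bp, against 177 bp for single-library regions. With 3 or more libraries, merging by 1 bp can chain peaks, so not every peak of a region need overlap every other. Of the recurring regions, 69 (4.43%) lay within 10 kb of another one.

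Peak height hardly set them apart. Peaks of recurring regions had a median of 7 fragments, as did single-library peaks, and 91.5% against 95.2% had between 5 and 9 fragments. Median fold was 3.49 against 3.47 and median −log10 p was 3.73 against 3.65. These values belong to the lists that chose the regions and are given without a test. A q-value of 0.05 or less was reached by 34 peaks in recurring regions (1.05%), against 161 single-library peaks (0.251%), and by at least 1 peak in 26 of the recurring regions (1.67%). In 7 of these regions 2 or more libraries reached it. The file headers say that q-values would not be computed although the column holds them, and they are used here as deposited. The 14 regions with 4 or more libraries had taller peaks as a set, with a median of 11 fragments, although 34.9% of their peaks had 5 to 9. A q-value of 0.05 or less was reached by 17.5% of their peaks, which lay in 5 of the 14 regions.

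The local background, the Input level that the peak caller set each peak against, was recovered from height and fold and expressed as a multiple of the genome-wide Input rate. No list held a value below 0.9986 times that rate, so a value near 1 may also stand for a lower Input level. The local background was at least 2 times the genome-wide rate in 4.46% of peaks in 2-library regions, 7.02% in 3-library regions and 34.9% in regions of 4 or more libraries, against 4.80% of single-library peaks. A background of at least 3 times the rate was found in 0.353% of single-library peaks. In 2-library regions it was found in 0.681% of peaks (20 peaks), in 3-library regions in 3.07% and with 4 or more libraries in 15.9%. Position also differed with the number of libraries. Like the background of at least 3 times the rate, and unlike that of at least 2 times, it did so already at 2 libraries. The genome held 70 stretches of 1 Mb or more with no peak in any library, as at centromeres, at the unassembled starts of acrocentric chromosomes and in large heterochromatic blocks. Within 1 Mb of such a stretch lay 4.90% of 2-library regions, 14.5% of 3-library regions and 57.1% (8 of 14) of those with 4 or more libraries, against 2.32% of single-library regions. The part of background and position in recurrence was not tested.

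**Figure D3:**
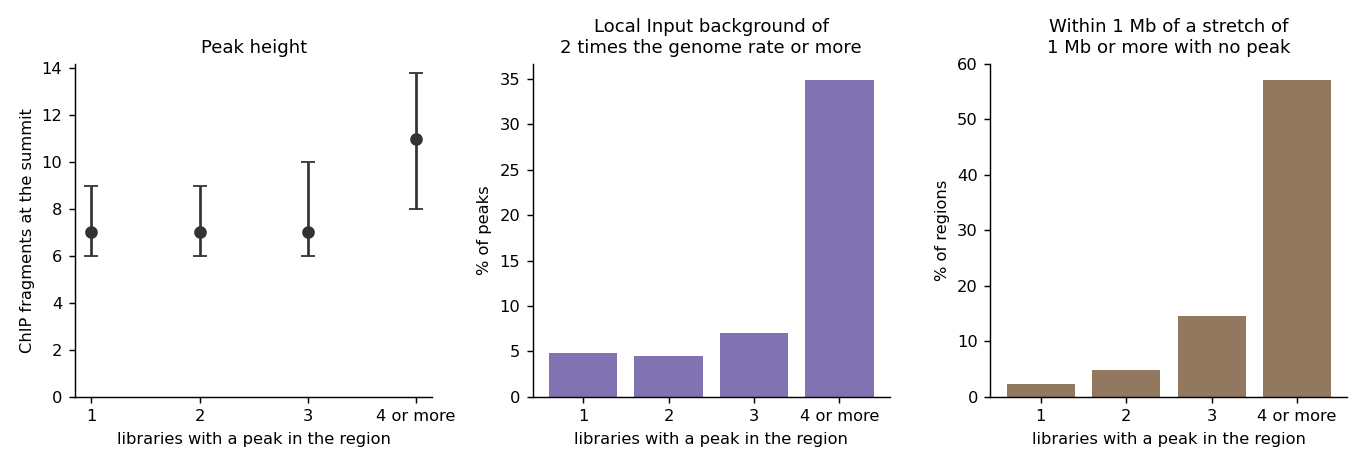
By number of libraries with a peak in the region (x axis): ChIP fragments at the summit (left; points are medians, bars run from the 10th to the 90th percentile of peaks), percentage of peaks with a local Input background of at least 2 times the genome-wide rate (centre), and percentage of regions within 1 Mb of a stretch of 1 Mb or more without peaks (right). All 3 measures are highest in the 14 regions with 4 or more libraries, with a median of 11 fragments, 34.9% and 57.1%.

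Of these 14 regions 8 lay on chromosomes 9, 21 and 22, and 1 lay in a protein-coding gene. All of them are described here; the last pair by rank, on chromosomes 15 and 14, fell outside the rule for named regions and was added after its values were seen. The most recurrent region, on chromosome 22 from 10732407 to 10733092 (GRCh38), is 22.1 kb from a stretch without peaks at the start of the assembled sequence and has no annotated gene within 2 kb. Its peaks had 13, 15 and 12 fragments in BDNF+Dox replicates 1, 2 and 3, 12 and 11 in BDNF replicates 1 and 3, and 13 and 12 in Naive replicates 2 and 3. All 3 groups were thus represented at much the same height, but not all at 1 place, since the peaks were chained by the 1 bp rule. Those of BDNF+Dox replicates 1 and 2 ended at 10732666 and 10732634. The peak of BDNF+Dox replicate 3 began at 10732844, and those of Naive replicates 2 and 3 at 10732883 and 10732808. The region's local background was 1.74 to 4.71 times the genome rate, its folds were 2.26 to 4.74, and none of its 7 peaks reached a q-value of 0.05. A pair of neighbouring regions on the same chromosome differed in this respect. The region from 12195427 to 12195696 had 11 and 13 fragments in BDNF+Dox replicates 1 and 2 and 11 each in Naive replicates 1 and 3, at a background of 1.01 to 1.05 and folds of 5.11 to 6.35, and 3 of its 4 peaks reached q of 0.05. Its neighbour from 12191176 to 12191408 had 12 fragments in BDNF+Dox replicate 3, 11 and 14 in BDNF replicates 2 and 3 and 11 in Naive replicate 2, at a background of 1.94 to 2.07, and no peak reached it.

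Chromosome 21 had 3 such regions, all on the short arm side of its assembled sequence. The region from 9306665 to 9306976 had 9 and 11 fragments in BDNF+Dox replicates 2 and 3, 11 in BDNF replicate 3 and 10 in Naive replicate 3, and 2 of the 4 peaks reached q of 0.05. The region from 8036541 to 8036780 had 12 and 9 fragments in BDNF+Dox replicates 2 and 3 and 10 and 12 in Naive replicates 2 and 3, with no BDNF peak, and again 2 reached it. Both had a background near the genome rate, at 0.999 to 1.11 times, so a high Input level did not accompany every region of this kind. The region from 9791809 to 9792269 lies in or within 2 kb of the lncRNA gene LINC01667, had 10 fragments in BDNF+Dox replicate 2, 10 each in BDNF replicates 2 and 3 and 11 in Naive replicate 1, and stood at a background of 1.94 to 2.07. Its peaks were chained as well, as that of BDNF+Dox replicate 2 ended at 9792003 and that of BDNF replicate 3 began at 9792014.

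On chromosome 9 the region from 40869616 to 40870189 had a peak in 6 libraries, 2 of each group, with 9 and 9 fragments in BDNF+Dox replicates 1 and 3, 9 and 6 in BDNF replicates 1 and 3 and 8 and 8 in Naive replicates 1 and 3. Its peaks were also chained. Those of BDNF replicate 3 and Naive replicate 1 ended (at 40869788 and 40869814) before that of BDNF+Dox replicate 1 began (at 40869870). The region from 66133619 to 66134150, in or within 2 kb of the transcribed pseudogene ANKRD20A3P, had 7 and 7 fragments in BDNF+Dox replicates 1 and 2, 9 in BDNF replicate 2 and 10 in Naive replicate 3. These heights were below the median of 11 fragments over peaks of the 14 regions, though most were above the single-library median of 7. No peak of either region reached q of 0.05. The remaining regions stood alone on their chromosomes. On chromosome 11 a region from 94234294 to 94234832, in or within 2 kb of the lncRNA gene LOC105369435, had 17 and 12 fragments in BDNF+Dox replicates 1 and 2, 21 in BDNF replicate 1 and 14, 13 and 19 in Naive replicates 1, 2 and 3. It had the tallest peaks of the 14 and a background of 2.66 to 3.76, 2 of its peaks (those of BDNF replicate 1 and Naive replicate 3) reached q of 0.05, and it lies far from any stretch without peaks. On chromosome 3 a region from 91282759 to 91282955, 26.1 kb from such a stretch, had 12 and 12 fragments in BDNF+Dox replicates 1 and 2, 9 in BDNF replicate 3 and 12 in Naive replicate 3, at a background of 0.999 to 1.01, and 2 of its peaks reached q of 0.05. On chromosome 4 the region from 48357 to 48604, in or within 2 kb of the pseudogene LOC105374377, had 10 and 10 fragments in BDNF+Dox replicates 1 and 2 and 9 and 11 in Naive replicates 1 and 3. Those on chromosome 15 from 28494736 to 28495047 (9 to 15 fragments, background 2.66 to 3.88) and on chromosome 14 from 19382753 to 19383112, in or within 2 kb of LINC01297 (8 to 9 fragments), complete the set.

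The region in a protein-coding gene lay in NMNAT2, which encodes an NAD-synthesising enzyme that keeps axons intact, on chromosome 1 from 183336684 to 183337117. It had 6 fragments in BDNF+Dox replicate 1 and 8, 9 and 7 in Naive replicates 1, 2 and 3, with no peak in a BDNF library. Its background was at the genome rate (0.999 to 1.00), its folds were 3.04 to 4.66 and no peak reached q of 0.05.

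**Figure D4:**
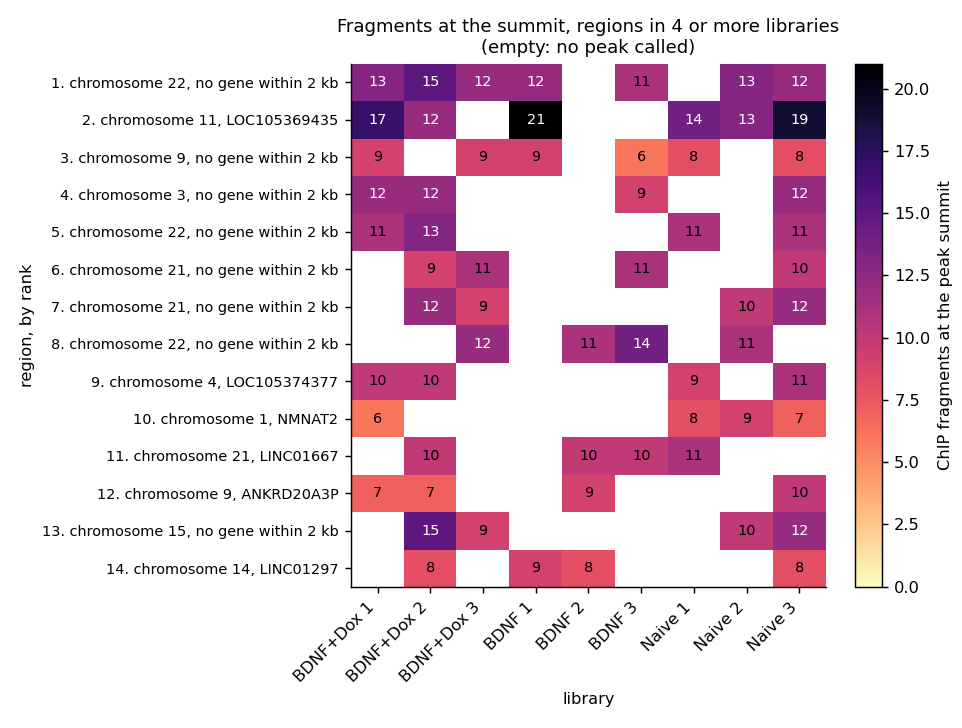
ChIP fragments at the peak summit in each of the 9 libraries (columns) for the 14 regions with 4 or more libraries (rows, by rank, with chromosome and a gene that the region lies in or within 2 kb of). Empty cells are libraries without a called peak. Peaks of BDNF+Dox and Naive libraries are present in every row, and the tallest, of 21 fragments, is that of BDNF replicate 1 on chromosome 11.

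Few regions separated groups completely. A peak in all 3 BDNF+Dox and no BDNF library was found in 2 of all 65632 merged regions (0.00305%), and in the same 2 against Naive (0.00305%). The first lay in NRCAM, which encodes an L1-type adhesion protein of neurons, on chromosome 7 from 108322116 to 108322426, with 8, 10 and 8 fragments in BDNF+Dox replicates 1, 2 and 3. Its folds were 3.01, 3.92 and 3.40 at a background of 1.56 to 1.57, and the q-value was 1 in each. The other, on chromosome 11 from 124178589 to 124178936 with no annotated gene within 2 kb, had 8, 6 and 6 fragments. For Naive against BDNF+Dox the count was 2 (0.00305%) and for Naive against BDNF 3 (0.00457%). Among them were the region in NMNAT2, against BDNF only, and a region on chromosome 7 from 54290281 to 54290565, outside genes, with 6, 7 and 7 fragments in Naive replicates 1, 2 and 3. No region had a peak in all 3 BDNF libraries and no library of BDNF+Dox (0.0%) or Naive (0.0%). A single region with 3 libraries against 3 cannot reach an exact p below 0.1, and the heights are those of ordinary peaks.

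Recurring regions fell in genes about as often as single-library regions did. In or within 2 kb of a protein-coding gene lay 613 of 1558 (39.3%), against 40.9% of single-library regions. Gene interiors held 36.7% against 38.1%, the 2 kb around gene ends 2.63% against 2.81%, noncoding genes and pseudogenes alone 16.4% against 16.7%, and no annotated gene was near 44.3% against 42.4%. Within 2 kb of a protein-coding transcription start lay 13 recurring regions (0.834%), against 1.14% of single-library regions. Of the 90 regions with 3 or more libraries, 31.1% lay in or near a protein-coding gene and 0 near a transcription start, and these differences were not tested.

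The 10 gene-end regions ranked first by libraries and p-value lay at CCDC126, SOS1, FRG2C, AGBL2, ZC3H11B, ZNF717, OR10T2, DSC1, GDF7 and CD300C. The region at CCDC126 (chromosome 7, from 23644474 to 23644877) had 5 fragments in BDNF replicate 3 and 8 and 12 in Naive replicates 1 and 3, the last with q = 0.0304. That at SOS1, an exchange factor that activates RAS, had 8 fragments in BDNF replicate 2 and 7 and 6 in Naive replicates 1 and 2 (chromosome 2, from 38982834 to 38983341). At SOS1 the peak of Naive replicate 1 ended at 38983085, before that of BDNF replicate 2 began at 38983105. Neither the region at CCDC126 nor that at SOS1 had a BDNF+Dox peak. The remaining 8 had 2 peaks each, of 6 to 11 fragments: both from Naive at FRG2C and at GDF7, a growth factor of the BMP family, both from BDNF+Dox at ZC3H11B, from BDNF and Naive at OR10T2, an olfactory receptor gene, and from BDNF+Dox and Naive at AGBL2, a tubulin-modifying carboxypeptidase, at the zinc finger gene ZNF717, at DSC1, a desmosomal cadherin, and at CD300C, an immune receptor. Compositions were mixed, with no group in all of them.

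A recurring region was found in 548 of 19970 protein-coding genes (2.74%). These were long genes, with a median of 204 kb against 24.2 kb for all, and 478 of them had 1 region, 56 had 2, 10 had 3 and 4 had more. CNTNAP2, a neurexin-related protein that organises potassium channels on axons, had 7 over 2304 kb, beside 91 single-library regions. DIAPH2, an actin-nucleating formin, and PDE1C, a cyclic nucleotide phosphodiesterase, had 4 each beside 34 and 28. ERBB4, the neuregulin receptor, was 1 of the 10 genes with 3, beside 34 single-library regions. Each of these regions had 2 libraries, in mixed compositions. Of the 7 in CNTNAP2, 1 joined BDNF+Dox replicates 1 and 2 (8 and 7 fragments) and the others joined different groups, such as BDNF replicate 1 and Naive replicate 1 with 13 and 9 fragments. The regions in CNTNAP2 had backgrounds up to 2.18 times the genome rate, whereas those in ERBB4 stayed between 0.999 and 1.11.

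In all protein-coding genes recurring regions numbered 0.466 per Mb of gene span with flanks, and 2.32% of the regions in such genes recurred. Adhesion, axon guidance, synaptic and axon and cytoskeleton genes had higher rates per Mb, from 3 to 16 regions per list, and the difference was not tested. Single-library regions numbered 29.2, 25.7, 23.7 and 19.3 per Mb in these lists, in that order, against 19.7 in all protein-coding genes. Neuronal adhesion genes had a recurring region in 8 of 29 members (0.759 per Mb, 2.54% of their regions), 7 of the 16 regions being those of CNTNAP2. Axon guidance genes had one in 5 of 26 (0.501 per Mb, 1.91%) and synaptic genes in 6 of 29 (0.507 per Mb, 2.10%). Axon and cytoskeleton genes had one in 3 of 21 (0.650 per Mb, 3.26%). Large genes at common fragile sites had one in 9 of 20 (0.403 per Mb, 1.38%). Olfactory receptor genes had one in 7 of 392 (1.52 per Mb, 4.38%), from 7 regions in a short total of 4.59 Mb, and zinc finger genes in 6 of 517 (0.255 per Mb, 1.31%). Among genes of synuclein biology and Parkinson disease MAPT, also on the axon and cytoskeleton list, was the gene with one (1 of 20). Noradrenergic (0 of 18) and mesenchymal (0 of 16) neuroblastoma markers had none, nor had BAF complex and arginine methyltransferase genes (0 of 32). Single-library regions were also few there, at 19, 27 and 36 in these 3 lists.

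Listed genes with the highest ranks included NMNAT2 and NRCAM, described above, then NAALADL2, ZNF717, OR10T2, DMD, CNTNAP2, SEMA3A, MAPT, FHIT and ZNF407. In MAPT, which encodes the microtubule protein tau, a region on chromosome 17 from 45969740 to 45969937 had 8 fragments in each of BDNF+Dox replicates 1 and 2, with no peak elsewhere. In SEMA3A, a secreted guidance cue that repels axons, a region on chromosome 7 from 84056160 to 84056551 had 8 fragments in each of Naive replicates 2 and 3. The regions in NAALADL2 and in DMD, the dystrophin gene, each joined BDNF and Naive, those in FHIT, a gene at a fragile site, joined BDNF+Dox replicate 3 and Naive replicate 3 with 8 fragments each, and those in ZNF407 joined BDNF+Dox replicate 2 and BDNF replicate 3 with 6 and 9.

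Chromosomes differed in how many of their regions recurred. The share was 5.52% on chromosome 22 (16 of 290), 4.67% on chromosome 7 (257 of 5502), 3.50% on chromosome 1, 3.35% on 21 and 3.34% on 17, and it was lowest on chromosome 13 at 1.30%. Chromosomes 1, 2, 7 and 17 held 42.2% of recurring regions, against 28.5% of all merged regions. SH-SY5Y cells are known to carry extra copies of chromosome 7 and of parts of 1q, 2p and 17q. The median local background at peaks was 1.42 times the genome rate on chromosome 7, 1.25 on chromosome 1, 1.19 on 17 and 1.11 on 2, and 1.00 to 1.05 on each of the others. The density of merged regions was highest on chromosome 7, at 35.3 per Mb. It was 25.3 on chromosome 1, 25.2 on 2 and 17.6 on 17, within the range of the others (8.25 on chromosome 19 to 28.8 on chromosome 4).

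Chromosomes 1, 2, 7 and 17 were divided at their longest stretch without peaks, and on 1, 2 and 17 the side with the higher Input level had the higher share. On chromosome 1, 4.39% of regions recurred above that stretch (median background 1.42) and 2.05% below it (1.03). On chromosome 2 the share was 3.51% below (1.23) and 1.79% above (1.03), and on chromosome 17 it was 3.87% above (1.26) and 0.813% below (1.00), the last being 2 of 246 regions. Both sides of chromosome 7 had a background of 1.42 and shares of 4.51% below and 4.76% above. Across the 23 chromosomes the share and the background had Pearson r = 0.548 and Spearman rho = 0.366, where all points come from the same 9 libraries and 1 Input, and the share and the density of regions r = −0.0899. Chromosome 22 stood off this relation, with a background of 1.02 over all its peaks and 1.79 in its recurring ones. Whether copy number or the Input level bears on recurrence was not tested.

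**Figure D5:**
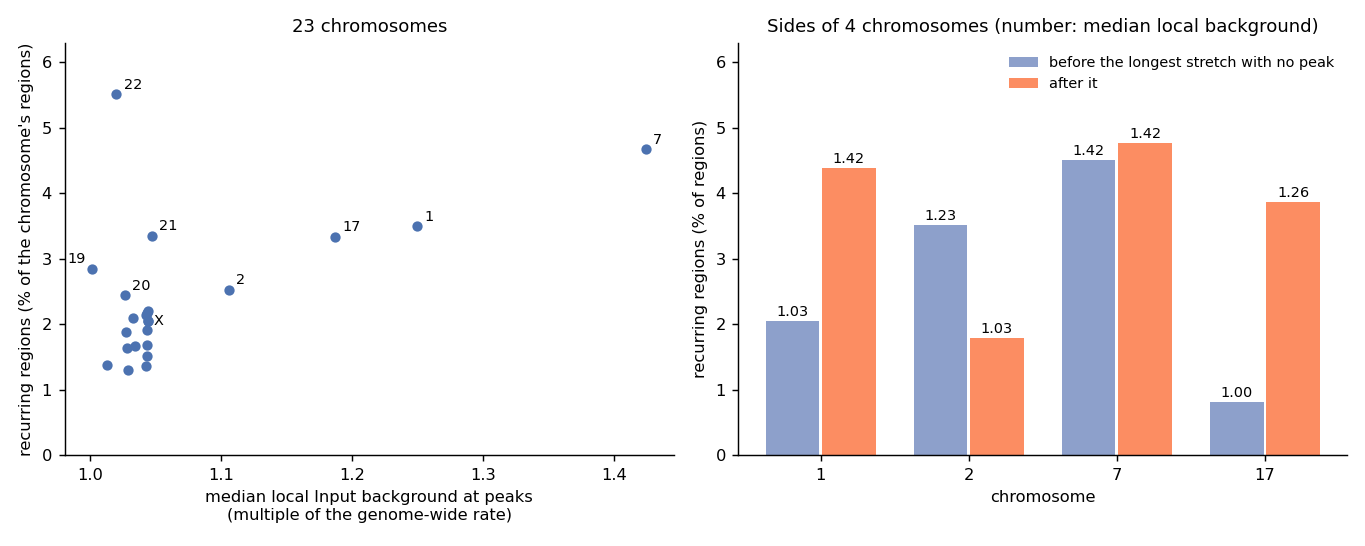
Left, percentage of a chromosome's regions that recurred (y axis) against the median local Input background at its peaks as a multiple of the genome-wide rate (x axis), 1 point per chromosome; right, the percentage on either side of the longest stretch without peaks, with the median background printed above each bar. Chromosomes 7, 1 and 17 combine higher backgrounds with shares above 3%, chromosome 22 has the highest share at a background of 1.02, and on chromosomes 1, 2 and 17 the higher bar is the side with the higher background.

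Reads of a group's 3 libraries were also pooled by the authors, who called peaks of pooled BDNF+Dox over pooled BDNF and over pooled Naive. These lists hold the same reads as the libraries, and both share the BDNF+Dox reads, so overlaps are given as a description. A pooled narrow peak of BDNF+Dox over BDNF overlapped 101 recurring regions (6.48%), against 2.67% of single-library regions and 2.76% of all merged regions. For BDNF+Dox over Naive it was 67 (4.30%), against 2.25% of all merged regions. Broad peaks overlapped 141 (9.05%; 4.91% of all) and 93 (5.97%; 3.98% of all). These regions were 1.03% and 0.850% of the narrow pooled peaks in the authors' deposited tables. Where 2 or more BDNF+Dox libraries but no BDNF library had a peak, 56 of 139 regions (40.3%) had a pooled narrow peak over BDNF, and where BDNF but no BDNF+Dox library had one, 0 of 460 did, which follows from the direction of the call.

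At a pooled q-value of 0.05 or less 5 recurring regions were overlapped in each comparison, beside 0.0488% of all merged regions over BDNF and 0.0427% over Naive. The region from 23198922 to 23199145 on chromosome 15, within 2 kb of the microRNA gene MIR4509-1, had 12 and 10 fragments in BDNF+Dox replicates 2 and 3 and none called elsewhere. In the authors' deposited table it had a fold of 6.00 and q = 3.8e-08 over BDNF, and a fold of 5.09 and q = 6.01e-07 over Naive. The region from 84456519 to 84456873 on chromosome 15, in or within 2 kb of the transcribed pseudogene LOC102724135, had 16 and 11 fragments in the same libraries, with q = 2.2e-08 over BDNF in the authors' deposited table, at an Input background of 2.21 to 2.82. NRCAM had q = 0.000243 over BDNF and 0.0221 over Naive in the authors' deposited table, MAPT 0.0347 over BDNF, and OAT, which encodes ornithine aminotransferase, 0.0144 over Naive, from 6 and 7 fragments in BDNF+Dox replicates 1 and 3. The others had peaks outside BDNF+Dox as well. On chromosome 9 from 60686648 to 60686929, BDNF+Dox replicate 1 had 44 fragments and BDNF replicate 1 had 36, at backgrounds of 9.94 and 9.88, with q = 5.88e-05 over Naive in the authors' deposited table. On chromosome X from 9405721 to 9405963, BDNF+Dox replicate 1 had 27 and Naive replicate 2 had 25, at backgrounds of 5.42 and 5.82, with q = 0.00788 over BDNF in the authors' deposited table. On chromosome 21 from 8037992 to 8038230, BDNF+Dox replicate 2 had 13 and BDNF replicates 1 and 2 had 12 and 9, with q = 0.0215 over Naive in the authors' deposited table.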

How the data were processed

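H4R3me2s ChIP-seq of 9 SH-SY5Y libraries (3 BDNF+Dox, 3 BDNF, 3 Naive, grouped by the labels) and 1 Input was analysed from the deposited peak lists. Per the submitters' processing notes, the tools were cutadapt 1.1, Trimmomatic 0.32, Bowtie and MACS2 2.2.7.1, on GRCh38. Per the file headers, narrow peaks were called against the Input at a p threshold of 0.01, the larger dataset was scaled down, and the local background windows were 1000 and 10000 bp. The deposited files give for each peak its length in bp, its pileup signal, a fold (the ratio over the local background) and −log10 values of p and q, all computed by the authors. Sequence came only from the RefSeq promoter table (GRCh38.p14); the regions' own sequences were not used here.

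From these, whole fragments were recovered as the pileup signal deposited by the authors divided by the scaling, and local background as (pileup + 1)/fold − 1, since the fold carries a pseudocount of 1. Peaks overlapping by 1 bp were merged. Genes are RefSeq spans (GRCh38.p14) with 2 kb flanks. Group differences were tested on 1 number per library (log10 for numbers of regions) by exact permutation tests; the test functions were tested on simulated data. Replicate numbers were not used to pair the samples in the main tests. The members and lists were chosen with earlier results of these data known. Named regions were, ranked by libraries and then median −log10 p: the first 12; all that every library of a group and no library of another had as a peak; the first 10 at gene ends; the first 12 in listed genes; those of the 5 genes with most; and up to 10 with a pooled peak at q of 0.05. Some results of this rule are not reported here. Alternatives were overlap, p thresholds, equal peak numbers, 3 libraries, each library left out, a replicate block, gene flank and peak length, and, chosen after seeing the data, Input background and chromosomes. Python 3.11.15, pandas 2.3.3, numpy 2.4.6 and scipy 1.17.1 were used.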

Additional observations from a re-analysis of the deposited data

Results flagged for a closer look

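Sequences outside chromosomes 1 to 22 and X, which no comparison above used, also held recurring regions. On 76 such sequences the 9 lists had 452 peaks in 310 merged regions, and 67 of these (21.6%) had a peak in 2 or more libraries, against 2.37% on chromosomes 1 to 22 and X. In 18 of them 4 or more libraries had a peak, and 1 or more had a peak in as many as 8 libraries, with none in all 9. Peaks on these sequences had a median of 11 fragments and a local Input background of 2.21 times the genome rate, and those in their recurring regions 15 fragments and 3.61 times. The part of the Input level in this was not tested.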

How the results depend on the processing

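The number of recurring regions moved most, from 1558 to 913 at a −log10 p of 3 or more, 40 at 5 or more, 644 at equal peak numbers, 90 with 3 or more libraries and 900 without chromosomes 1, 2, 7 and 17. It was 1066 to 1325 with each library left out. The share in or near protein-coding genes, 39.3%, moved to 22.5% at that stricter −log10 p of 5, 31.1% with 3 or more libraries, 35% without those chromosomes and 38.3% to 39.7% with each library left out. The ratio of BDNF+Dox over BDNF in regions held, 1.19, was 1.94 at −log10 p of 5 or more, where the 3-group test passed the threshold (exact permutation p = 0.0286) but BDNF+Dox against BDNF did not (exact permutation p = 0.1, the smallest that 3 against 3 allow), fell below 1 at equal peak numbers (0.965) and was 1.04 to 1.31 with each library left out; the 3-group exact permutation p over its alternatives ran from 0.0286 to 0.711. The difference in the share of peaks, −0.654 points, changed sign at −log10 p of 5 or more (0.590) and was −0.795 to −0.395 with each library left out. The share of 2-library regions within a group, 23.9%, rose above 25% at −log10 p of 5 or more (29.0% of 31 regions) and without BDNF replicate 1 (25.9%) or 2 (25.2%), and was 21.7% to 25.9% with each library left out; with 3 or more libraries it has no value by construction. The causes were not tested.

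Correlations between same-numbered libraries, in deviations of peak shares per chromosome, ran from r = −0.655 to 0.441. No differently numbered libraries were set beside them, so they cannot show whether replicate numbers pair the samples. With a replicate block the exact permutation p was 0.167 for the regions held (ratio 1.19) and 0.333 for the share of peaks (difference −0.654). Shallow peaks limit all of this, since most rest on 5 to 9 fragments.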
